A study of Homo sapiens with 4 samples.

Results

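Regulators that set the threshold for programmed cell death, 10 genes in all, were read on expression arrays of Ca9-22 cells, an established squamous carcinoma line from the human gingiva, after knockdown of KPNA4. The set holds the pro-survival BCL2 family members BCL2, BCL2L1, BCL2A1 and MCL1, the inhibitor of apoptosis (IAP) genes BIRC2, BIRC3 and XIAP, the death receptor brake CFLAR, and the pro-death BH3-only genes BBC3 and PMAIP1. The members were chosen by name, and a probe belonged to a member if its transcript did. This rule found 15 probes for the 10 genes, out of 34127 probes on the array and 19542 genes tested. KPNA4 encodes an importin alpha subunit, which carries proteins with a nuclear localization signal into the nucleus. RNA was taken from 2 control cultures, labeled negative control cells, and 2 KPNA4 knockdown cultures. The series describes them as biological replicates, and each was hybridized to 1 array of the same slide with 1 dye. Both groups were grown in the same serum-containing medium. By the labels the cells were harvested 3 days after siRNA transfection, whereas the study's text names short hairpin RNAs for this experiment, so the reagent is not settled here.

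Cells die by apoptosis when the effector proteins BAX and BAK1 open the outer mitochondrial membrane. BCL2, BCL2L1, BCL2A1 and MCL1 hold these effectors in check, and BH3-only proteins such as BBC3 (PUMA) and PMAIP1 (NOXA) bind the protectors and free the effectors. Downstream, XIAP blocks active caspases directly, while BIRC2 and BIRC3 (cIAP1 and cIAP2) are ubiquitin ligases that keep TNF receptor signaling on the survival branch. CFLAR (c-FLIP) resembles a caspase and restrains caspase-8 at death receptors. BIRC3, BCL2A1 and CFLAR are textbook targets of NF-κB, a transcription factor whose subunits must enter the nucleus to act.

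The signals are given as log2 of the processed signal relative to the 75th percentile of the same array, so 0 is the 75th percentile and a step of 1 is a doubling. KPNA4 itself read 4.02 and 4.03 in control and 2.36 and 2.05 in knockdown. Its log2 fold change was -1.82, with a standard error (SE) of 0.12 and a limma adjusted p of 0.00183, in the direction the labels give. Between 70.2% and 71.1% of probes were well above background on an array. The 75th percentile was 1465.6 and 1381.3 in control and 1938.0 and 2095.5 in knockdown, so the scaling of the arrays matters for small changes. All 10 squamous epithelial markers listed were detected well above background in every culture, at a summed linear signal of 306 to 307 times the 75th percentile in control and 262 to 273 in knockdown. Of these markers 6 were higher and 3 lower, against 20.3% and 29.5% of all genes tested, with a median log2 fold change of 0.85. KRT6A was higher by 6.94. The 3 lower ones, SFN, EPCAM and ITGB4, were the brightest in control, so the sum fell although most markers rose. SFN changed by -0.28, and by 0.14 after quantile normalization. Leukocytes are a known source of BCL2A1 transcript, and the leukocyte markers summed to 6.58 to 6.88 in control and 7.21 to 7.64 in knockdown. Most of this sum was 1 gene, CD14, which read 2.05 and 2.03 in control and 2.62 and 2.54 in knockdown. Of 9 leukocyte markers tested 2 were higher and 5 lower, and the defining gene PTPRC read -4.96 and -5.32 in control and -5.71 and -5.68 in knockdown. Fibroblast markers summed to 0.141 to 0.146 in control and 0.329 to 0.344 in knockdown, with COL3A1, POSTN and THY1 not well above background. Of 5 fibroblast markers tested 3 were higher and 1 lower. COL1A1 was higher by 1.62 and COL1A2 by 1.24, whereas DCN (-0.10) was not called. LUM was well above background in control only and was lower by at least 1.49-fold. Endothelial markers summed to 0.0847 to 0.0918 in control and 0.0608 to 0.0643 in knockdown, with PECAM1, KDR and TEK not well above background. The part of other cell types in the results was not tested. Of 12 genes with a probe whose presence differs between cell lines, 5 had a probe well above background throughout 1 group and nowhere in the other. Among all single probes 1.97% had this pattern, a share per probe and not per gene. A difference between the cultures other than KPNA4 therefore cannot be told apart from the knockdown in any result below.

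The regions upstream of BIRC3 and BIRC2 are shown because these neighboring genes of chromosome 11 encode closely related ubiquitin ligases and had folds far apart. The letters are from RefSeq, assembly GRCh38.p14, on the plus strand, and end at the base before the annotated start site of the gene. Capitals mark matches to the κB motif.
BIRC3, chr11:102317234-102317483: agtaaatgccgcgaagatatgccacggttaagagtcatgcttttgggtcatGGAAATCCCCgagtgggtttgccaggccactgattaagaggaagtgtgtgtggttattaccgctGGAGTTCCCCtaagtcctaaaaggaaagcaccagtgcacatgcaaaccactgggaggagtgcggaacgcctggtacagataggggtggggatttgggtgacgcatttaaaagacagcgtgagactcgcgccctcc
BIRC2, chr11:102346964-102347213: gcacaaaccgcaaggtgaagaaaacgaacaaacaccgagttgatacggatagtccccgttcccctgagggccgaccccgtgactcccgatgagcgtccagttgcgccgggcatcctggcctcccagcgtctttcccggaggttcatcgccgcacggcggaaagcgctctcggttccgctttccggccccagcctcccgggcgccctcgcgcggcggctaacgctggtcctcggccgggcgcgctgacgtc

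The BIRC3 window held 2 κB matches, both on the minus strand. GGGGATTTCC lay at -199 to -190 from the start site, where it also met a narrower form of the motif, and GGGGAACTCC lay at -135 to -126. Neither of the 2 windows of BIRC2, each from 250 bases before to 50 after a start site, held a match. Windows of this length were found for 9 of the 10 members, 16 windows in all, and both strands were searched. The only other member with a match to the general κB consensus was CFLAR, with GGGGAATTCC at -97 to -88 in 1 of its 4 windows. Of 35116 such windows of all genes, 5.91% held the general consensus and 1.91% its narrower form. The ATF4 motif TGATGNAA, in 3.62% of windows, matched at -63 to -56 in BCL2A1 as TGATGCAA, and the decamer motif of p53, in 6.63% of windows, matched no member. A match describes letters and is not evidence of binding.

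In KPNA4 knockdown cells BIRC3 was far lower than in control cells, BIRC2, BCL2A1 and BBC3 were lower by less, and BCL2 was higher. BCL2L1, MCL1, XIAP, CFLAR and PMAIP1 did not pass the test on their brightest probes. All 10 members were well above background on all 4 arrays. With limma and Benjamini-Hochberg adjustment over 19542 genes, 1 of 10 members was called higher, against 20.3% of all genes tested, and 4 were called lower, against 29.5%. Together, 5 of 10 were called, against 49.8%. The median log2 fold change was -0.22 over the members and -0.10 over all genes. In 8 of 10 members the knockdown arrays did not overlap the control arrays, 2 above (31.7% of all genes) and 6 below (48.2%), against 79.9% of all genes in either direction. The count of changed members is thus close to the background of this experiment, and what differs among them is the size of the change. Leaving out knockdown array 1 or knockdown array 2 left 2 members called lower, BIRC2 and BIRC3.

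**Figure D1:**
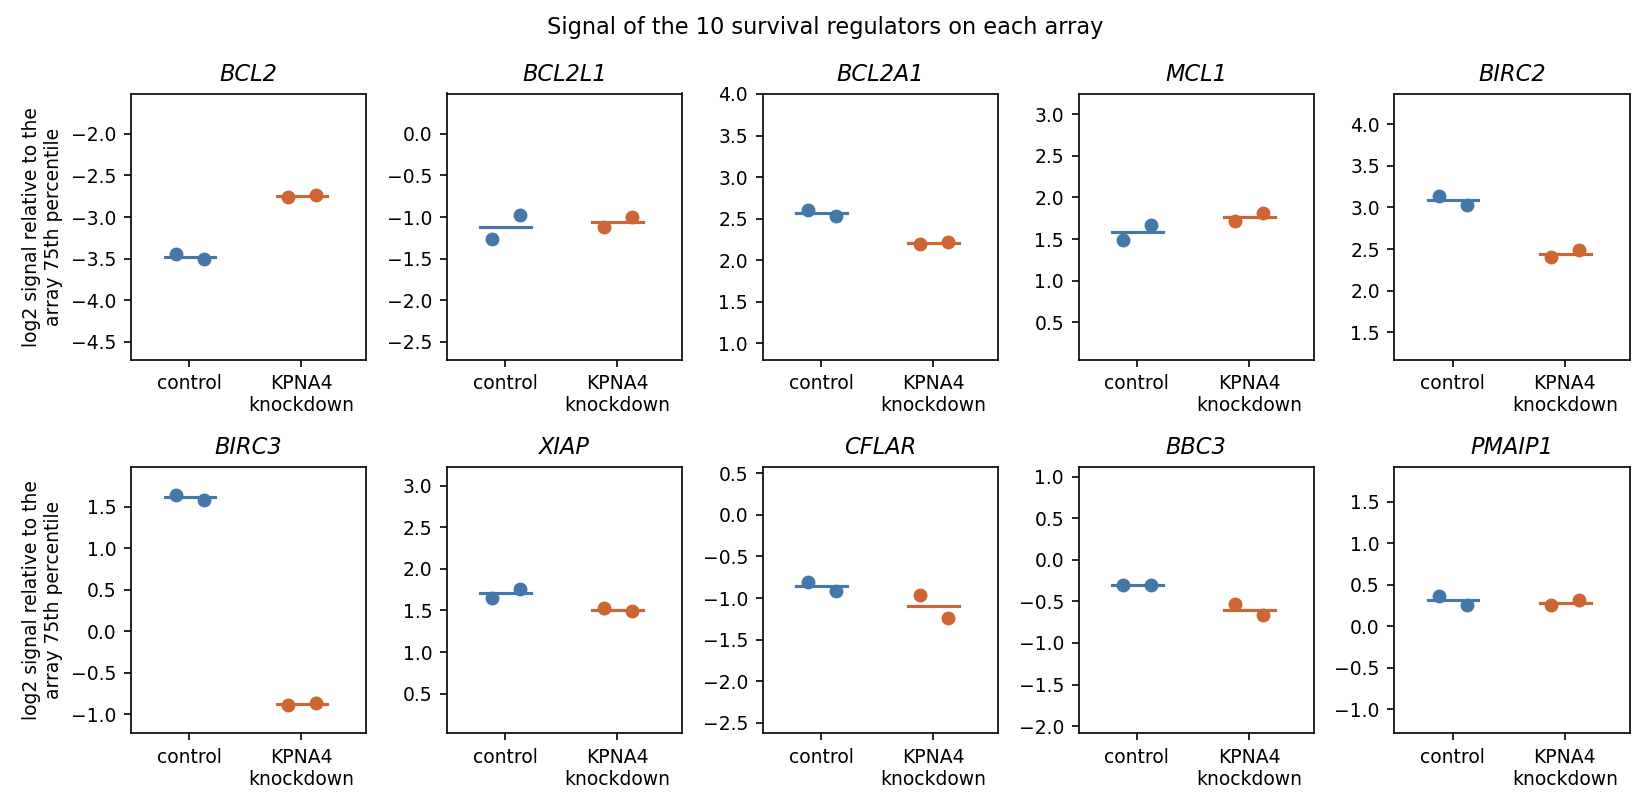
Each panel plots 1 gene: points are single arrays (2 control, 2 KPNA4 knockdown), short lines are group means, and the y axis is log2 signal relative to the 75th percentile of the array, with the same span in every panel. BIRC3 shows the widest gap between groups, from 1.64 and 1.58 down to -0.89 and -0.86, while PMAIP1 and BCL2L1 overlap.

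Among the IAP genes BIRC3 stood apart. Its probe, annotated to NM_001165, read 1.64 and 1.58 in control and -0.89 and -0.86 in knockdown. The arrays of a group lay within 0.1 of each other and the groups were far apart. The log2 fold change was -2.49 (SE 0.06, 95% confidence interval -2.65 to -2.32, limma adjusted p = 3.58e-04), which leaves 17.8% of the control signal. It was the 69th lowest of 19542 fitted fold changes, within the lowest 0.353%. In bulk RNA, fewer cells with BIRC3 transcript and less transcript per cell cannot be told apart.

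BIRC2, the other cIAP, changed in the same direction but less. It read 3.14 and 3.03 in control and 2.40 and 2.49 in knockdown, without overlap. The log2 fold change was -0.64 (SE 0.07, 95% confidence interval -0.84 to -0.43, limma adjusted p = 0.00573), a fold of 1.55. The call was lost without scaling of the arrays, where the fold change was -0.13.

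XIAP, the caspase inhibitor, had 2 probes, both annotated to NM_001167. The brighter read 1.65 and 1.76 in control and 1.53 and 1.49 in knockdown, slightly lower and without overlap. Its log2 fold change of -0.20 (SE 0.07, 95% confidence interval -0.39 to -0.01) had an adjusted p of 0.0776 in limma and was not called. The dimmer probe read -2.09 and -2.38 in control and -2.39 and -4.16 in knockdown. Its fold change of -1.04 rested on the low reading of knockdown array 2 and had a confidence interval of -2.75 to 0.66.

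CFLAR was read by 3 probes that gave different answers. The brightest, annotated to NM_001127184, read -0.81 and -0.91 in control and -0.96 and -1.24 in knockdown, a log2 fold change of -0.24 (95% confidence interval -0.56 to 0.08, limma adjusted p = 0.161). The probe annotated to NM_001202519 read -1.75 and -1.69 in control and -2.52 and -2.68 in knockdown. These groups lay well apart, at a log2 fold change of -0.88 (SE 0.08, limma adjusted p = 0.00354 over 24187 probes). The probe annotated to NM_003879 read -3.19 and -2.93 in control and -3.01 and -2.95 in knockdown, where the groups overlapped (0.08, SE 0.11, limma adjusted p = 0.556). CFLAR gives rise to several transcripts with long and short protein products, and the array annotation does not say which of them each probe detects. The difference between the NM_001202519 and NM_003879 probes on an array does not depend on the scaling. It was 1.44 and 1.24 in control and 0.49 and 0.27 in knockdown, so it changed by -0.97, against at most 0.22 between arrays of a group. This was the largest change among the CFLAR probe pairs. The brightest probe minus the NM_001202519 probe changed by 0.64, against at most 0.17. The brightest minus the NM_003879 probe changed by -0.32, less than the 0.37 between arrays of a group. A two-sided exact permutation test over 4 arrays could not go below p = 0.333, so it could not decide any pair.

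Over all member probes, 14 of 15 passed the filter on background. Of these, 2 were called higher, against 20% of all probes, and 5 lower, against 28.4%, so 7 of 14 were called, against 48.4%. Those higher were both BCL2 probes, and those lower were the probes of BIRC3, BIRC2, BCL2A1 and BBC3 and the NM_001202519 probe of CFLAR.

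**Figure D2:**
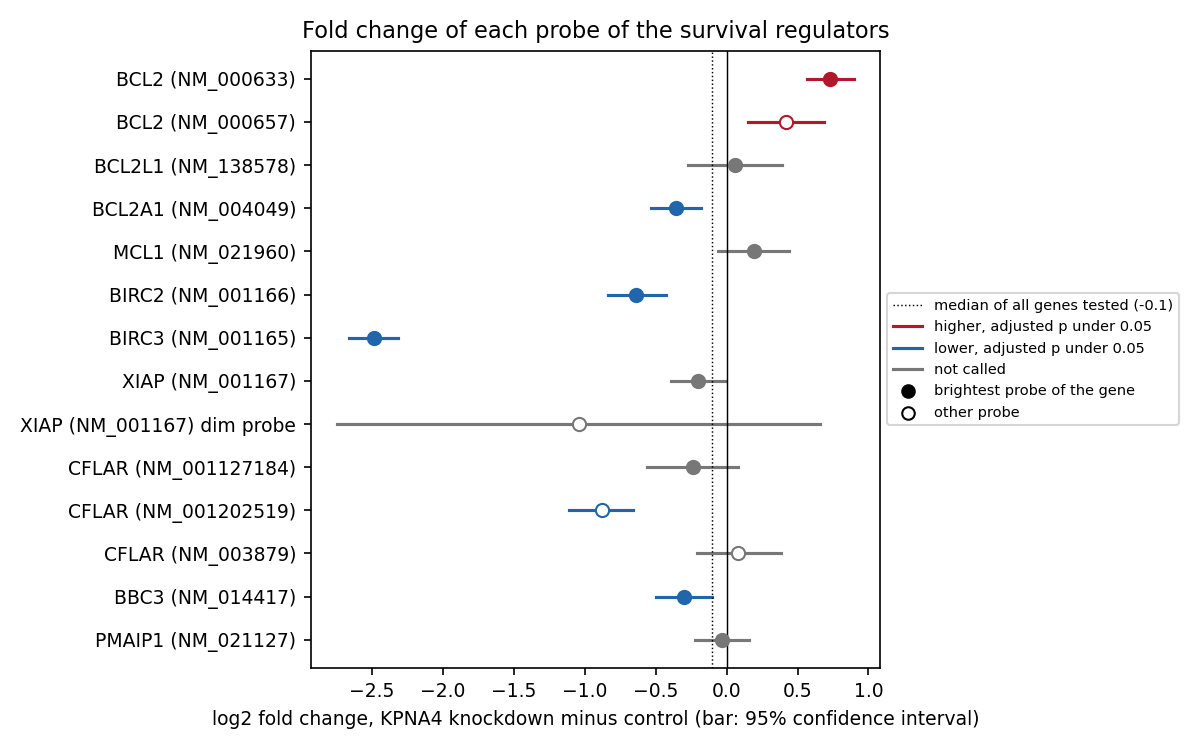
Each row is a probe that passed the filter, with its log2 fold change (knockdown minus control) and 95% confidence interval from limma over 4 arrays. Filled points are the brightest probe of a gene, open points other probes, color gives the call, the solid line is 0 and the dotted line the median of all genes. The BIRC3 interval, from -2.66 to -2.32 in the fit over probes, lies apart from those of the other called probes, and the dim XIAP probe has the widest interval.

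The pro-survival BCL2 genes moved in different directions. BCL2, the founding member and an outer mitochondrial membrane protein, was the member called higher. Its brighter probe, annotated to NM_000633, read -3.45 and -3.50 in control and -2.76 and -2.73 in knockdown, among the dimmer signals of the set. The log2 fold change was 0.73 (SE 0.06, 95% confidence interval 0.57 to 0.89, limma adjusted p = 0.00268), a fold of 1.66. That fold change exceeded 92.1% of all genes tested. The probe annotated to NM_000657 read -3.84 and -3.61 in control and -3.32 and -3.29 in knockdown, also higher and without overlap (0.42, SE 0.10, limma adjusted p = 0.0302). BCL2 kept its call under each of the 16 alternatives tried, but its size ranged from 0.40 with normexp background correction to 1.24 without scaling.

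BCL2A1, a small member best known from leukocytes, was lower. Its bright probe read 2.61 and 2.53 in control and 2.20 and 2.22 in knockdown. The groups did not overlap, and the log2 fold change was -0.36 (SE 0.06, 95% confidence interval -0.52 to -0.19, limma adjusted p = 0.0143), or 78.2% of control. With scaling on spike-in controls the fold change was -0.22 and not called, and without scaling it turned to 0.15. The second BCL2A1 probe was not well above background on any array, with readings from -9.79 to -9.24, and was not tested.

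MCL1, a protector with a short-lived protein, read 1.49 and 1.67 in control and 1.72 and 1.81 in knockdown. Both knockdown arrays were above both controls, but the log2 fold change of 0.19 (SE 0.09, 95% confidence interval -0.06 to 0.44, limma adjusted p = 0.154) was not called. BCL2L1, which encodes BCL-XL, read -1.26 and -0.97 in control and -1.12 and -1.0 in knockdown, with overlapping groups. Its interval of -0.27 to 0.39 around a log2 fold change of 0.06 leaves room for a modest change in either direction (limma adjusted p = 0.706).

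Of the BH3-only genes, BBC3 was slightly lower and PMAIP1 overlapped between groups. BBC3 read -0.30 in both controls and -0.53 and -0.67 in knockdown. Its log2 fold change was -0.30 (SE 0.07, 95% confidence interval -0.50 to -0.10, limma adjusted p = 0.0324). This call was lost when any 1 of the 4 arrays was left out and under spike-in scaling (-0.17), and the sign turned without scaling (0.20). PMAIP1 read 0.37 and 0.26 in control and 0.26 and 0.31 in knockdown, a log2 fold change of -0.03 (95% confidence interval -0.22 to 0.15, limma adjusted p = 0.700).

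How the arrays are scaled decides the small changes. The median log2 fold change of all genes was -0.10 on the 75th percentile, -0.05 after quantile normalization, 0.03 on spike-in controls and 0.40 without scaling. Of the 10 spike-in probes 7 were used, and they were brighter on the knockdown arrays by 0.37 on the log2 scale (0.22 to 0.51), against 0.50 for the 75th percentile. Under the same 4 scalings BIRC3 fell by 2.49, 2.46, 2.35 and 1.99, and BCL2 rose by 0.73, 0.71, 0.87 and 1.24. Relative to the median gene, the 75th percentile gave -2.39 for BIRC3, -0.53 for BIRC2, -0.25 for BCL2A1, -0.20 for BBC3 and 0.84 for BCL2. After quantile normalization 1 member was called higher, against 22.3% of all genes, and 4 lower, against 25.1%. On spike-in controls 1 member was called higher, against 20.2% of all genes, and 2 lower, BIRC2 and BIRC3, against 13.6%. Without scaling 5 were called higher, against 57.6%, and BIRC3 alone lower, against 5.36%. The spike-in fit pooled the spread completely (limma's prior degrees of freedom were infinite), so its p-values are not quoted. It gave each member an SE of 0.18, against 0.06 to 0.12 at the 75th percentile. A call lost on spike-in controls, here and below, therefore need not mean a smaller change.

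**Figure D3:**
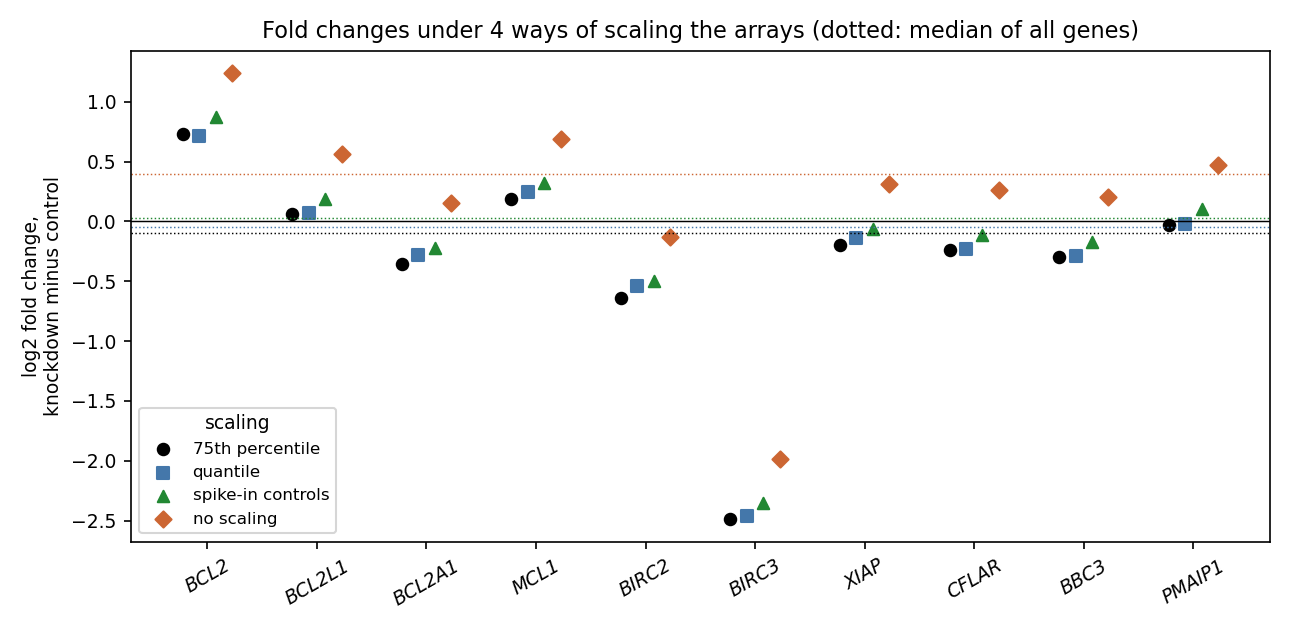
Log2 fold changes (knockdown minus control, y axis) of the 10 genes under 4 scalings of the arrays, with dotted lines at the median of all genes under each scaling in the same color. BIRC3 stays between -2.49 and -1.99 and BCL2 between 0.71 and 1.24, while BCL2A1, XIAP, CFLAR, BBC3 and PMAIP1 lie on both sides of 0.

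Differences between 2 members on the same array need no scaling. BIRC3 minus BIRC2 was -1.49 and -1.45 in control and -3.29 and -3.35 in knockdown. It changed by -1.85, against at most 0.06 between arrays of a group, so BIRC3 signal fell 3.61-fold relative to BIRC2 signal. BIRC3 minus XIAP changed by -2.29, a fold of 4.89. BCL2 minus BCL2L1 was -2.20 and -2.53 in control and -1.64 and -1.73 in knockdown, a change of 0.67 or 1.6-fold in favor of BCL2. The other pairs changed by less: -0.41 for BCL2A1 minus BCL2L1, -0.26 for BBC3 minus PMAIP1, -0.22 for PMAIP1 minus MCL1 and -0.13 for BCL2L1 minus MCL1. These 4 rested on few arrays: with control 1 left out PMAIP1 minus MCL1 changed by -0.08 and BCL2A1 minus BCL2L1 by -0.24. With control 2 left out PMAIP1 minus MCL1 changed by -0.37 and BCL2L1 minus MCL1 by -0.08, and with knockdown 2 left out BBC3 minus PMAIP1 changed by -0.17. For CFLAR minus XIAP the groups overlapped, with a change of -0.04. In the 8 pairs a two-sided exact permutation test over 4 arrays could not go below p = 0.333, which 7 pairs reached (0.381 after adjustment over the 8), so no pair could pass a threshold of 0.05.

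**Figure D4:**
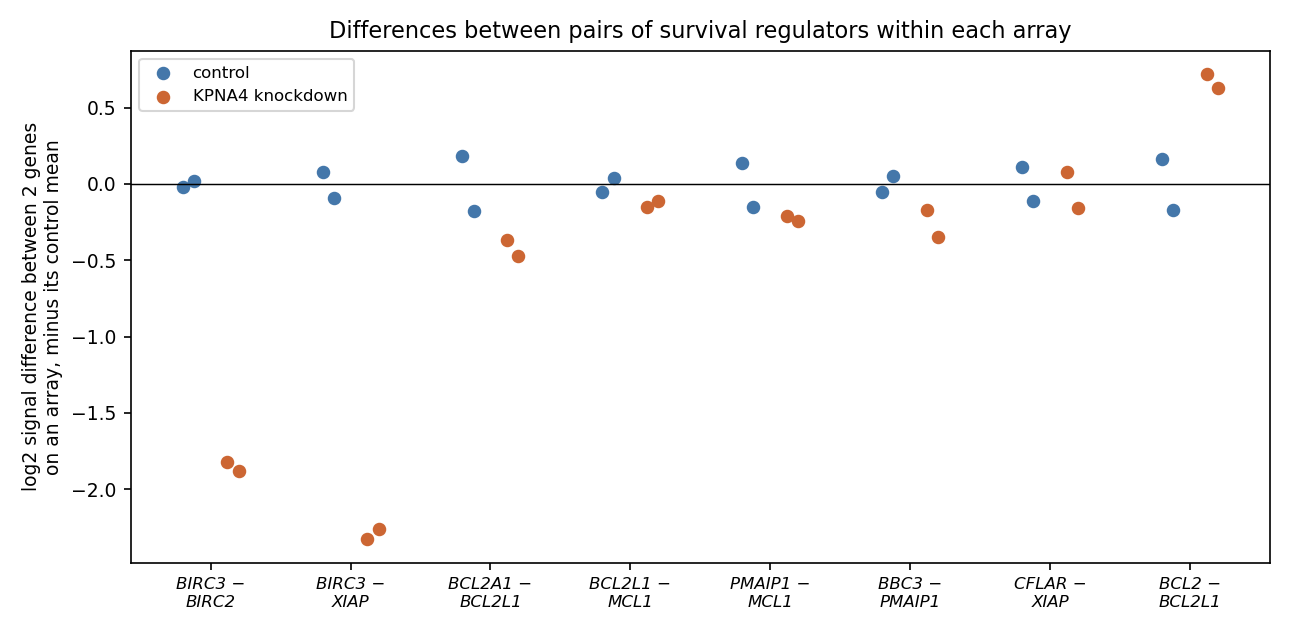
Log2 signal difference between 2 genes on each array, with the control mean of the pair set to 0 (y axis, log2 units), for 8 pairs (x axis). Points are single arrays. The pairs with BIRC3 drop by 1.85 and 2.29 in knockdown, BCL2 minus BCL2L1 is higher by 0.67, and CFLAR minus XIAP overlaps.

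Genes that act with the survival regulators were counted in lists set by function. Of all genes, 20.3% were called higher and 29.5% lower, the shares to set beside each list count. These shares were 20.2% and 13.6% on spike-in controls and 57.6% and 5.36% without scaling. The pore-forming effectors showed BAK1 higher (1.54 and 1.53 in control, 1.89 and 1.86 in knockdown, log2 fold change 0.34, limma adjusted p = 0.0124), a call lost with knockdown array 1 or knockdown array 2 left out. BAX had a fold change of 0.11 (limma adjusted p = 0.391) and BOK of -0.29 (limma adjusted p = 0.0618). BCL2L2, the other pro-survival member tested, had -0.11 and was not called. Of 8 other BH3-only and BNIP3 genes, 2 were higher and 3 lower. BID, which links death receptors to mitochondria, changed by -0.74, BCL2L11 (BIM) by -0.73 and BNIP3 by -0.71, whereas BNIP3L was higher by 0.69 and BMF by 0.39. All 5 kept their sign without scaling, where the 3 lower ones were no longer called. With knockdown array 1 or knockdown array 2 left out, 1 gene of this list was called higher and 3 lower.

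Other IAP genes and their antagonists were counted next. Of 4 other IAP genes tested, BIRC7 was lower (-4.29 and -4.40 in control, -6.69 and -6.48 in knockdown, log2 fold change -2.24, limma adjusted p = 8.93e-04) and so was BIRC5 (survivin, -0.34). BIRC5 was not called after quantile normalization (-0.17), on spike-in controls (-0.21) or without scaling (0.16), and NAIP (0.17) and BIRC6 (0.09) were not called. BIRC7 remained lower under each scaling, from -2.24 to -1.74. It was well above background on 2 control and 2 knockdown arrays, but its knockdown readings were dim. Scaling does not address how background affects the size of a fold from such signals, which was not tested for BIRC7. Of 3 IAP antagonists tested 2 were higher, XAF1 by 0.96 and DIABLO (SMAC), which releases caspases from XIAP, by 0.52, and both stayed higher under each scaling. HTRA2, the third, had -0.12 and was not called. Among 6 genes that govern the turnover of MCL1 and IAP proteins, the ubiquitin ligase genes FBXW7 (0.67) and MARCHF5 (0.47) were higher, and USP13, a deubiquitinase (-0.32), was lower. USP13 was not called on spike-in controls (-0.18) or without scaling (0.19), and with knockdown array 1 or knockdown array 2 left out, 1 gene of this list was called higher and 0 lower.

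Death receptor genes went both ways. Of 13 tested, 4 were higher and 4 lower, against 20.3% and 29.5% of all genes, with a median of -0.12 against -0.10. The receptor genes FAS (-0.81), TNFRSF10A (-0.80) and TNFRSF10D (-0.55) were lower, along with TNFRSF10B (-0.55). FAS stayed lower under each scaling, whereas TNFRSF10B and TNFRSF10D lost the call on spike-in controls (both -0.42) and without scaling (both -0.05), as did TNFRSF10A without scaling (-0.30). CYLD, a deubiquitinase of the TNF receptor complex, was higher by 0.92, TNFRSF1A by 0.54 and TRAF1 by 0.39. The list had 4 higher and 2 lower on spike-in controls, against 20.2% and 13.6% of all genes. Without scaling it had 7 higher and 1 lower, against 57.6% and 5.36%. Among apoptosome and caspase genes, the initiator caspase genes CASP9 (0.34) and CASP2 (0.27) were higher, and CYCS, which encodes cytochrome c, was lower (-0.21). The CYCS call was lost after quantile normalization and on spike-in controls (both -0.08) and without scaling (0.29). CASP2 was not called on spike-in controls, although its fold change was larger there (0.40), in the fit with pooled spread.

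The upstream regulators were read from 3 further lists. Of 9 tested NF-κB subunits and feedback inhibitors, 6 were lower and the other 3 also had negative fold changes at the 75th percentile scaling, with a median log2 fold change of -0.76 against -0.10 over all genes. TNFAIP3 (A20), a feedback inhibitor, read 0.34 and 0.35 in control and -1.68 and -1.77 in knockdown, a fold change of -2.07 (limma adjusted p = 4.86e-04). TNIP1 changed by -1.25 and the subunit gene RELB by -1.19. The 6 genes kept their negative sign under quantile, spike-in and no scaling, though 3 were then called lower and 2 others higher without scaling. RELA, whose fold change was -0.27, was not called (limma adjusted p = 0.0546).

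BBC3 and PMAIP1 are themselves textbook targets of p53. The p53 response list had 5 genes higher and 8 lower of 22, with a median of -0.06, against 20.3% and 29.5% of all genes. The balance depended on the scaling, with 5 higher and 1 lower on spike-in controls and 13 higher and 1 lower without scaling. It was 2 higher and 4 lower without knockdown array 1, and 1 higher and 3 lower without knockdown array 2. SPATA18 (1.33), BTG2 (0.49) and XPC (0.35) were the largest changes upward, and FAS, TNFRSF10B (-0.55) and FDXR (-0.53) the largest downward, and 4 of the 8 lower genes turned sign without scaling. ATF4, the transcription factor of the integrated stress response, can induce PMAIP1. In its list 2 of 12 genes were higher and 7 lower, against 20.3% and 29.5% of all genes, with a median of -0.28 against -0.10. On spike-in controls 2 were higher and 3 lower, against 20.2% and 13.6% of all genes. Without scaling 5 were higher and 1 lower, against 57.6% and 5.36%, with a median of 0.22 against 0.40. Without knockdown array 1 or 2, 4 or 3 genes were called lower and 0 higher. CHAC1 (-0.80), PPP1R15A (-0.72) and SLC7A11 (-0.71) were lower and SLC3A2 (0.44) and VLDLR (0.39) higher, and 4 of the 7 lower genes turned sign without scaling.

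**Figure D5:**
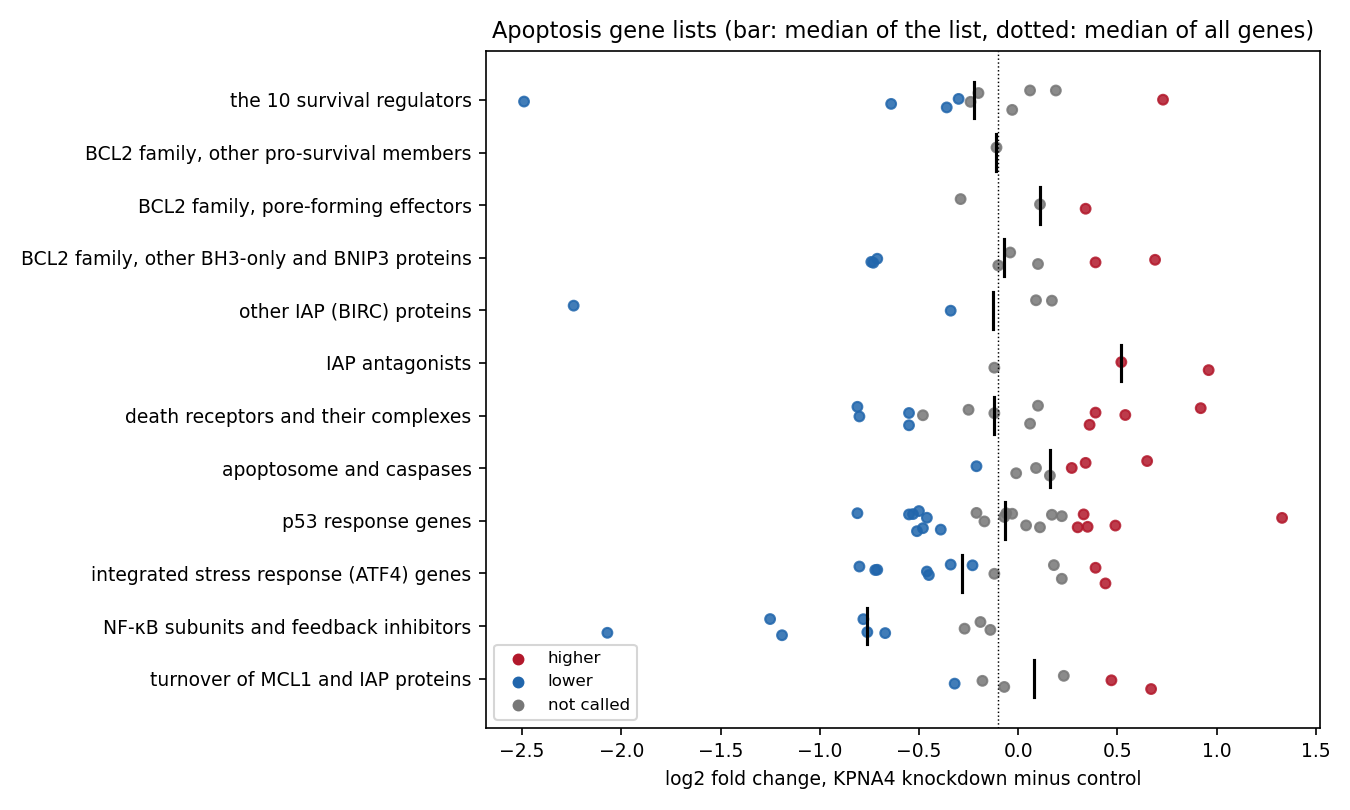
Log2 fold changes (knockdown minus control, x axis) of the 10 survival regulators and of 11 lists of apoptosis genes (rows); each point is a gene, color gives the limma call, black bars are list medians, and vertical scatter within a row has no meaning. BIRC3 and BIRC7 (the latter dim in knockdown) are the lowest points of the IAP genes. The NF-κB list has the lowest median, -0.76, against -0.10 for all genes (dotted line).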

How the data were processed

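RNA of 4 Ca9-22 cultures was measured on Agilent Whole Human Genome 1-color arrays. The authors scanned the slide and deposited Feature Extraction 11.0.1.1 output per array, with a processed signal intensity that is background-subtracted and not scaled between arrays. They also deposited a ratio table, found to be this signal over each array's 75th percentile (24209 probes), which served as an alternative. Per the labels the samples fall into 2 groups of 2.

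Control spots and outlier spots (333 to 355 of 43118) were left out, and no spot was saturated. Log2 signals were averaged per probe and the 75th percentile subtracted. A probe was kept if at least 1 group had it well above background on each of its arrays, and the brightest stood for a gene. RefSeq accessions (GRCh38.p14) named 25771 of 34127 probes. The arrays' grid uses another build, so no probe positions are given. limma 3.58.1 in R 4.3.3 (lmFit, eBayes) was run, and p-values were adjusted by Benjamini-Hochberg (threshold 0.05). Tested on simulated data for this comparison with 200 of 19542 genes changed, it recovered 11 of 50 genes changed by 0.5 (log2), 89 of 100 by 1 and 49 of 50 by 2, and called 14 unchanged genes. In the data 49.8% of genes were called, so the adjustment was stricter in the simulation. Its recovery rates and false calls therefore do not carry over to this comparison. With 2 arrays per group, their number limits precision, and p-values measure the spread between these cultures.

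The genes named were all 10 members with every probe, KPNA4, the pore-forming effectors and up to 3 called genes per direction and list with the largest change. A single gene of these lists is not reported here. RELA, BCL2L2, BIRC6, NAIP, HTRA2, KRT6A, SFN, EPCAM, ITGB4, CD14, PTPRC, COL1A1, COL1A2, DCN and LUM, and the comparisons of CFLAR probes, were added after their values were seen. The members and gene lists were chosen with earlier results of these data known. Alternatives were quantile, median, spike-in and no scaling, normexp background correction (offset 50), the deposited table, 2 other background filters, averaging a gene's probes, a fit on all probes, limma with trend and robust, a replicate block, and each array left out. Spike-in scaling was added after the data were seen. Protein sequences were not used here.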

Additional observations from a re-analysis of the deposited data

How the results depend on the processing

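Each member was recomputed under 16 alternatives. KPNA4, BCL2 and BIRC3 kept their direction and call in all 16, BIRC3 between -2.52 and -1.99. Of the recomputed member folds, 135 kept direction and side of the threshold, 11 lost the call, 5 gained it and 9 changed sign. Without scaling, the fold change turned to 0.15 for BCL2A1, 0.31 for XIAP, 0.26 for CFLAR, 0.20 for BBC3 and 0.47 for PMAIP1, with 5 members called higher and 1 lower. There 91.5% of all called genes were higher, against 40.8% at the 75th percentile, 59.7% on spike-in controls and 48.8% with normexp. With spike-in scaling PMAIP1 turned to 0.10 and 2 members were called lower, and with normexp 2 were called higher, BCL2 and MCL1 (0.26). With each array left out in turn, 2 to 3 members were called lower, BCL2L1 ranged from -0.08 to 0.20, PMAIP1 from -0.09 to 0.02, and CFLAR minus XIAP from -0.16 to 0.08. A lone array was assumed to vary like the other group. The scalings' sign changes follow from the shift of the median gene, and the cause of the other changes was not tested.

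No shared effect of the replicate number was seen: same-numbered deviations correlated at -0.0337 across 19542 genes. This cannot say whether the cultures were handled in pairs. With the replicate number as a block, BBC3 had an adjusted p of 0.063 (limma) and lost its call, 3 members were called lower, and over all genes 3261 were higher and 4638 lower, against 3974 and 5764.

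Counts over all genes that moved by more than 1.5 times were 11256 higher and 1047 lower without scaling, 2661 lower on spike-in controls, 2205 higher and 3134 lower without knockdown 1, and 2152 higher and 2525 lower without knockdown 2. Of the list counts under quantile, spike-in and no scaling, 26 moved by more than 1.5 times and 40 did not.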
